A study of Homo sapiens with 12 samples.

Results

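The genes described here are 9 enzymes that make NADPH or belong to the pentose phosphate pathway, measured by RNA sequencing in non-small cell lung cancer (NSCLC) cell lines after knockdown of NRF2. They were taken by symbol and make up 9 of the 57815 genes in each deposited table. The members are PGLS, PGD, RPIA, RPE, TKT, TALDO1, ME1, IDH1 and IDH2. Each was found once and passed the filter on low values in every line.

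The cells were A549 and H2023, both labelled lung adenocarcinoma, and H460, labelled large cell carcinoma, and all 3 lines carry a KEAP1 mutation. Each line was transfected with a control siRNA or with an siRNA against NRF2, whose gene is NFE2L2, and RNA was taken after 48 h, giving 6 groups of 2 libraries. The control siRNA was run in biological duplicate, whereas the 2 NRF2 siRNA libraries of a line came from 2 different siRNAs, numbered 28 and 30, which the study counted as duplicates. Their spread therefore holds the difference between siRNAs as well as that between cultures, and no group stands for more than 1 established line grown in culture. A549 was grown in high glucose medium and its RNA was depleted of ribosomal RNA, whereas H2023 and H460 were grown in low glucose medium and sequenced from polyadenylated RNA, so levels in A549 are set beside those of the other two without a test. In bulk RNA of this kind, fewer cells of a type and less RNA per cell cannot be told apart.

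NRF2 is a transcription factor of the response to oxidative and electrophilic stress. KEAP1 holds it low by delivering it for degradation, and KEAP1 mutation lets it accumulate. The pentose phosphate pathway has an oxidative branch, which reduces NADP+ to NADPH while turning a hexose phosphate into ribulose 5-phosphate, and a reversible non-oxidative branch, which exchanges pentose phosphates with the intermediates of glycolysis. NADPH feeds fatty acid synthesis and keeps glutathione and thioredoxin reduced, and malic enzyme and the NADP-dependent isocitrate dehydrogenases are further sources of it. Enzymes of both kinds are known from earlier work as NRF2-dependent genes in lung cancer cells.

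NRF2 is known to act at antioxidant response elements, whose core is TGACNNNGC. The windows from 250 bases before to 50 bases after the transcription start, taken from RefSeq on GRCh38.p14, were found for 9 of the 9 members and were searched on both strands for these letters. Of the 35116 windows of all genes, 13.3% held a match (16.1% of genes had such a window), and 4 of the 9 members had one. The 4 members with the largest falls in the results below are shown here because 2 of them held a match and 2 did not. The 250 bases before the start are printed 5′ to 3′ along the gene's own strand, with matches in capitals, for ME1 (chr6:83431052-83431301, minus strand), PGD (chr1:10398814-10399063, plus strand), TKT (chr3:53256023-53256272, minus strand) and TALDO1 (chr11:747214-747463, plus strand).
ME1: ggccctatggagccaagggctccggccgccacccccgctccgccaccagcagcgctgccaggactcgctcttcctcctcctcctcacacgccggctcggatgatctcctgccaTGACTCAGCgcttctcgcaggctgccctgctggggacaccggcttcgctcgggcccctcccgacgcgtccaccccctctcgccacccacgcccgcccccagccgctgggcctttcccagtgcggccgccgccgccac
PGD: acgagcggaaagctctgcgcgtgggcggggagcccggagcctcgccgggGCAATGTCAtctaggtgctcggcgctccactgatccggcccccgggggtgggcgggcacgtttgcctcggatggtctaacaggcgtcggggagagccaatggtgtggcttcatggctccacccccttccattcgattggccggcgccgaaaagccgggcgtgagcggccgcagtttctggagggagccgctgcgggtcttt
TKT: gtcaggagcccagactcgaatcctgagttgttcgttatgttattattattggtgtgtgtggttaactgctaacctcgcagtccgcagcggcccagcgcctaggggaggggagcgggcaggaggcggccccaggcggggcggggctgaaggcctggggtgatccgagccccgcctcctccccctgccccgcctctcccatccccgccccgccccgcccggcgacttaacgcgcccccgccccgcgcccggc
TALDO1: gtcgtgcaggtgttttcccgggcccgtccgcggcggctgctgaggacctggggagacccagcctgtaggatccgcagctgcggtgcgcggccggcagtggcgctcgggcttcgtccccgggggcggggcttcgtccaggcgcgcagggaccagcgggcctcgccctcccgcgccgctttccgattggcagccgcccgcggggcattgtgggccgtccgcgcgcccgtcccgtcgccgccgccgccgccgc
In ME1 the match TGACTCAGC lay from -137 to -129, counted so that the start is 1 and the base before it is -1, and a further match, TGACGGTGC on the opposite strand, lay from 12 to 20. In PGD the match lay from -201 to -193 on the opposite strand, where it reads TGACATTGC. RPE held TGACAGCGC from -151 to -143, and the second of the 2 windows of IDH1 held TGACTCCGC. TKT, TALDO1, RPIA, IDH2 and PGLS held none. ME1 and PGD, which held a match, and TKT and TALDO1, which held none, were the 4 members that fell most. Of the others with a match, IDH1 passed on the average over lines and RPE passed no test of the knockdown. The part of these letters in the response was not tested. A match of letters is a description and not a bound site, and its absence says only that these letters are not in this window.

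The values are FPKM, fragments scaled to transcript length and to the mapped fragments of the library, as the authors computed them, and differences are given on log2(FPKM + 1), which understates the change of genes near the bottom of the scale. The files hold no read counts, so the depth is unknown. The smallest steps between low values placed the libraries of a line between 92.7% and 107% of the depth of its first control library, and 12732 to 13909 genes per library reached 1 FPKM. The targeted gene fell in every line, by -2.24 ± 0.22 in log2 in A549, -3.86 ± 0.16 in H2023 and -3.60 ± 0.34 in H460 (limma, NFE2L2 adjusted p = 0.0178, 0.00529 and 0.0111). These calls were lost in 2, 2 and 3 of 12 alternative settings in the same order, and the sign was kept in all of them. NFE2L2 fell from 38.19 and 30.90 FPKM in the A549 controls to 5.31 with siRNA 28 and 7.84 with siRNA 30, from 119.97 and 118.48 to 7.74 and 6.80 in H2023, and from 144.41 and 99.54 to 6.54 and 12.19 in H460. The epithelial genes EPCAM, CDH1, KRT8, KRT18 and KRT19 all reached 1 FPKM in a library of every group except CDH1 in the H460 controls. Their summed FPKM was higher after knockdown in H2023 (4624 to 5273 against 2129 to 2547) and H460 (1743 to 2606 against 1142 to 1336), and overlapped in A549. The part of this in the results for the 9 enzymes was not tested. The lung lineage genes NKX2-1, NAPSA, SFTPB, SFTPC and SFTPA1 together stayed at or below 1.41 FPKM in every library, with SFTPA1 listed at 0 in all of them, so the lung origin on the labels is not visible in these genes.

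**Figure D1:**
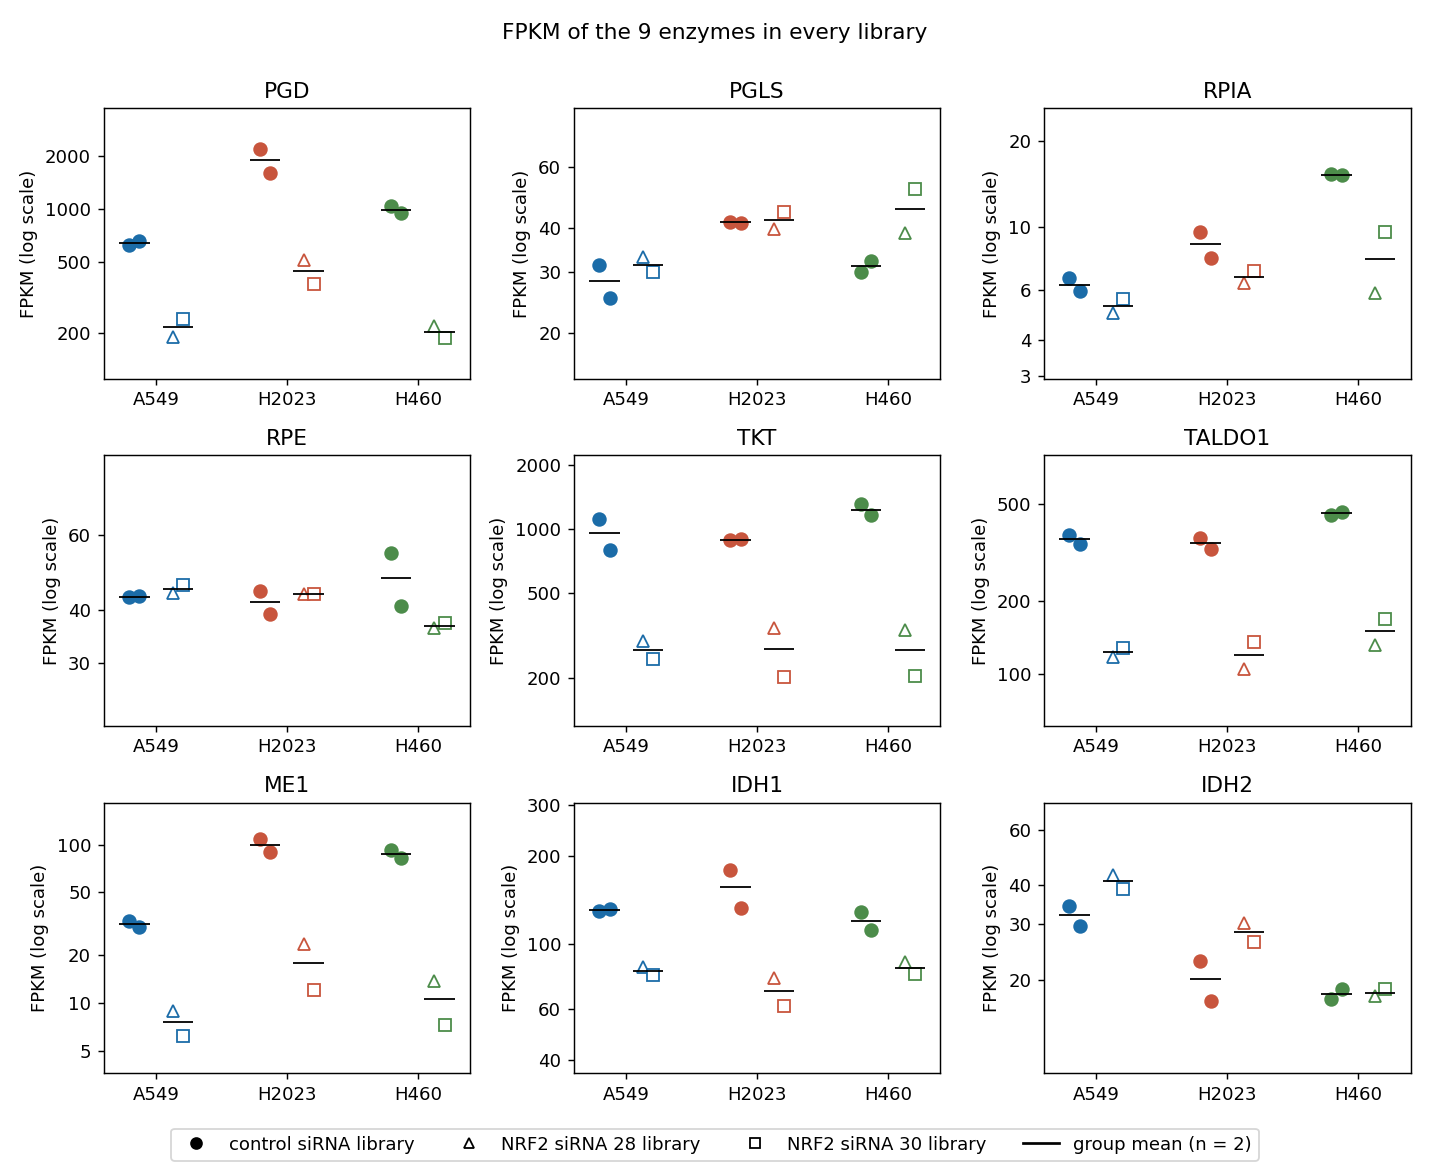
FPKM of each of the 9 enzymes (log axis, a separate range in each panel) by cell line, with filled circles for the 2 control siRNA libraries, open triangles for NRF2 siRNA 28, open squares for NRF2 siRNA 30 and a bar at each group mean. PGD, TKT, TALDO1 and ME1 sat far below their controls with both siRNAs in every line, and IDH1 lay lower by less. PGLS in H460 and IDH2 in A549 and H2023 lay above both controls without passing the test, and RPE lay between 36.20 and 54.36 in every library.

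The members were expressed at very different levels before knockdown. By mean FPKM in the control libraries, PGD ranked 160th, 30th and 94th among the 57815 genes in A549, H2023 and H460, and TKT ranked 93rd, 72nd and 72nd. TALDO1 ranked 271st, 239th and 222nd. These 3 enzymes were thus among the most abundant transcripts of all 3 lines, and together the 9 members took 0.222% to 0.590% of the summed FPKM of a control library. IDH1 ranked 700th, 560th and 935th, and ME1 3055th, 971st and 1342nd. At the other end, RPIA lay between 5.92 and 15.29 FPKM in all control libraries, IDH2 between 17.12 and 34.39, PGLS between 25.16 and 41.82, and RPE between 39.17 and 54.36.

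After NRF2 knockdown, ME1, PGD, TKT and TALDO1 lost most of their transcript, and PGLS, RPE and IDH2 did not. Each line was tested by limma over all genes that reached 1 FPKM in 2 of its 4 libraries, with adjusted p under 0.05 as the threshold. In A549, 4 of the 9 members fell (ME1, PGD, TKT, TALDO1), against 0.554% of the 13898 genes tested, and 0 rose, against 0.122%. In H2023, 3 fell (ME1, PGD, TALDO1), against 0.583% of 14059 genes, and 0 rose, against 0.327%. In H460, 4 fell (ME1, PGD, TKT, TALDO1), against 6.86% of 13446 genes, and 0 rose, against 7.12%. At an unadjusted p under 0.05, in either direction, 5 members passed in A549, 5 in H2023 and 6 in H460, where 13.3%, 16.9% and 33.7% of all genes tested did. The median log2 fold change of the 9 members was -0.69, -1.16 and -0.93 in A549, H2023 and H460, where that of all genes tested was 0.02, 0.02 and -0.01. The counts of called members rest on the filter, without which 0 were called in each line, and on 2 control libraries a line. Without the first A549 control library 0 members were called and without the second 1 (TKT). In H2023 and in H460 0 were called without either control library, and in H2023 5 were called without either NRF2 siRNA library.

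Counted by overlap alone, both NRF2 siRNA libraries lay below both controls for 6 members in A549, 6 in H2023 and 7 in H460, where 20.5%, 22% and 31.6% of all genes tested did so. They lay above both controls for 2, 1 and 1 members, where 25.2%, 27% and 31.1% of all genes did so. ME1, PGD, TKT, TALDO1, IDH1 and RPIA lay below in each of the 3 lines.

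The oxidative branch was represented by an enzyme that fell and one that did not. PGD, the 6-phosphogluconate dehydrogenase that releases CO2 and makes NADPH, stood at 622.88 and 655.63 FPKM in the A549 controls and at 189.24 with siRNA 28 and 240.26 with siRNA 30. In H2023 it went from 2180.38 and 1591.02 FPKM to 514.83 and 378.25, and in H460 from 1039.18 and 947.97 to 217.32 and 187.01. No NRF2 siRNA library reached a control of its line, and the means after knockdown were 33.6%, 23.7% and 20.3% of control in A549, H2023 and H460. PGD thus changed on the log2 scale by -1.58 ± 0.17 in A549 (SE, n = 2 per group; limma adjusted p = 0.0263), a call that was lost when mitochondrial transcripts were left out (-1.69, adjusted p = 0.0607). The change was -2.07 ± 0.25 for H2023 (adjusted p = 0.0417), lost with no trend of the prior variance (adjusted p = 0.061), and reached -2.29 ± 0.24 for H460 (adjusted p = 0.0120). PGLS, the lactonase that acts just before PGD, was at 31.37 and 25.16 FPKM in the A549 controls against 33.01 and 29.97 after knockdown, and at 41.82 and 41.55 against 39.86 and 44.57 in H2023. In these 2 lines its libraries overlapped. In H460 both knockdown libraries, at 38.76 and 52.10 FPKM, lay above the controls at 30.06 and 32.35, with a log2 fold change of 0.51 ± 0.24 that did not pass the test (limma adjusted p = 0.188) but did in the fit of all 12 libraries (adjusted p = 0.0487). The gene lies at chr19:17622445-17632097 on GRCh37, overlapped by lncRNA genes on the opposite strand.

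In the non-oxidative branch, TALDO1 fell in 3 lines and TKT in 2, and the isomerase and epimerase passed in none. TKT, the transketolase that moves 2-carbon units, was at 1117.56 and 797.37 FPKM in the A549 controls and at 297.20 with siRNA 28 and 245.15 with siRNA 30. The corresponding values were 888.34 and 900.20 against 344.01 and 201.77 in H2023, and 1310.95 and 1164.18 against 336.77 and 204.42 in H460. Knockdown left 28.3%, 30.5% and 21.9% of the control mean in A549, H2023 and H460. On the log2 scale TKT changed by -1.80 ± 0.22 in A549 (limma adjusted p = 0.0386) and by -2.23 ± 0.31 for H460 (adjusted p = 0.0178). In H2023 it was about as large, at -1.76 ± 0.28, but missed the threshold with an adjusted p of 0.0728. The siRNA 28 and 30 libraries stood apart by similar amounts in H2023 and H460, and why the calls differed was not tested. TKT passed there in the fit of all 12 libraries (adjusted p = 0.00928) and with the replicate block (adjusted p = 0.00940). In the knockdown arm the replicate number is also the siRNA, so the block does not separate them. Without the siRNA 28 library the H2023 change was -2.14, and without the siRNA 30 library -1.38.

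TALDO1, the transaldolase that moves 3-carbon units, was the member whose loss varied least from line to line. It went from 372.46 and 341.39 FPKM to 118.09 and 128.21 in A549, from 362.79 and 325.90 to 104.53 and 135.80 in H2023, and from 448.60 and 463.05 to 131.10 and 168.30 in H460. The means after knockdown were 34.5%, 34.9% and 32.8% of control in A549, H2023 and H460. Its log2 fold change was -1.53 ± 0.14 (limma adjusted p = 0.0140), -1.52 ± 0.19 (adjusted p = 0.0449) and -1.61 ± 0.24 (adjusted p = 0.0188) in the same order. The H2023 call of TALDO1 was lost with a pseudocount of 0.1 (adjusted p = 0.0506) and with no trend of the prior variance (adjusted p = 0.0756).

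RPIA, which interconverts ribulose and ribose 5-phosphate, was the scarcest member. It was at 6.59 and 5.92 FPKM in the A549 controls against 4.98 and 5.59, at 9.57 and 7.78 against 6.34 and 6.96 in H2023, and at 15.29 and 15.17 against 5.85 and 9.60 in H460. Every knockdown library thus lay below its controls, but the differences of -0.21, -0.33 and -0.93 in log2 did not pass in single lines (limma adjusted p = 0.627, 0.489 and 0.0828). In H460 RPIA passed in the fit of all 12 libraries (adjusted p = 0.00999) and with the replicate block. Without the siRNA 30 library its change there was -1.24. RPE, the epimerase that interconverts ribulose and xylulose 5-phosphate, stayed within a narrow range, at 42.87 and 42.98 FPKM in the A549 controls against 43.80 and 45.65, and 44.39 and 39.17 in H2023 against 43.53 and 43.52. In H460 it was at 54.36 and 40.77 in the controls and at 36.20 and 37.11 after knockdown. The 95% interval of its log2 fold change was -0.26 to 0.37 in A549, -0.34 to 0.46 in H2023 and -0.92 to 0.21 in H460, so a fall of the size seen for TALDO1 lay outside all 3 intervals. RPE (chr2:210867289-210886984, GRCh37) overlaps KANSL1L on the opposite strand and has 6 named pseudogenes, none above 0.252 FPKM. Whether strand was used to compute these values is not given in the sources used here, so reads of RPE and KANSL1L may not be separated.

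**Figure D2:**
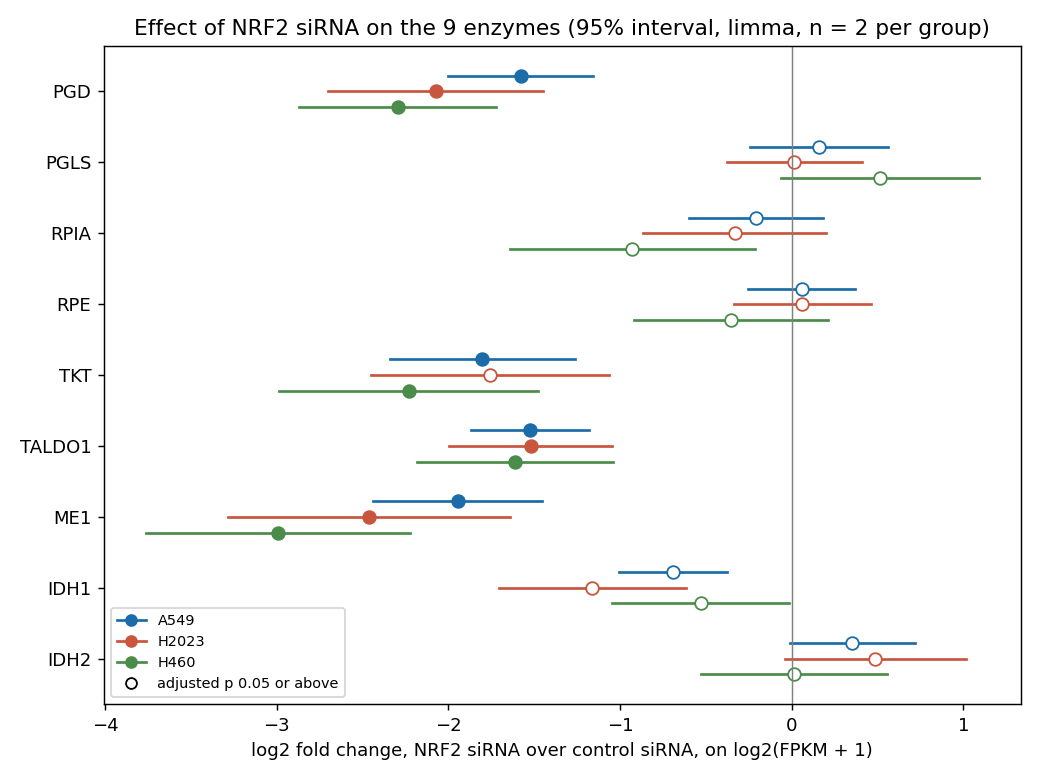
log2 fold change of each enzyme with NRF2 siRNA over control siRNA (log2 of FPKM + 1) with its 95% interval from limma, coloured by cell line and filled where the adjusted p was under 0.05. The intervals of PGD, TKT, TALDO1 and ME1 lie wholly below -1 in every line, whereas those of PGLS, RPE and IDH2 include 0 in every line.

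Outside the pentose phosphate pathway, ME1 fell in each line, whereas IDH1 and IDH2 passed in no single line. ME1, the cytosolic malic enzyme that makes NADPH and pyruvate from malate, showed the largest log2 decrease of the 9 members in each of the 3 lines. It went from 33.15 and 30.14 FPKM in the A549 controls to 8.96 with siRNA 28 and 6.18 with siRNA 30, from 108.24 and 89.48 to 23.77 and 12.12 in H2023, and from 91.78 and 82.67 to 13.85 and 7.24 in H460. The mean after knockdown was 23.9%, 18.2% and 12.1% of control in A549, H2023 and H460. ME1 changed on the log2 scale by -1.95 ± 0.20 in A549 (limma adjusted p = 0.0221). For H2023 the change was -2.46 ± 0.33 (adjusted p = 0.04998), and for H460 it was -2.99 ± 0.32 (adjusted p = 0.0124). The H2023 value lies at the edge of the threshold and was lost with a pseudocount of 0.1 (adjusted p = 0.0602) and with no trend of the prior variance (adjusted p = 0.0746).

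IDH1, the isocitrate dehydrogenase of the cytosol and peroxisome, was lower in every knockdown library but by less. It was at 130.10 and 131.24 FPKM in the A549 controls and at 83.02 and 78.09 after knockdown, at 179.67 and 132.92 against 76.54 and 61.36 in H2023, and at 128.70 and 111.42 against 86.50 and 78.74 in H460. The log2 differences of IDH1 were -0.69 ± 0.13, -1.16 ± 0.22 and -0.53 ± 0.21, and none passed in a single line (limma adjusted p = 0.125, 0.101 and 0.138). In H2023 IDH1 passed in the fit of all 12 libraries (adjusted p = 0.00560), with the replicate block and without either NRF2 siRNA library, and in H460 it passed in the fit of all 12 libraries (adjusted p = 0.0435). IDH1 overlaps IDH1-AS1 on the opposite strand. IDH2, the isocitrate dehydrogenase of mitochondria, did not follow. It was at 34.39 and 29.72 FPKM in the A549 controls and at 43.23 and 39.04 after knockdown, and at 22.96 and 17.12 against 30.30 and 26.26 in H2023, both knockdown libraries lying above both controls. In H460 its libraries overlapped, at 17.36 and 18.69 FPKM against 17.66 and 18.68. The log2 differences of IDH2, at 0.35, 0.49 and 0.01, did not pass (limma adjusted p = 0.389, 0.326 and 0.979).

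The ratio between these isocitrate dehydrogenases was lower after knockdown. The ratio of IDH1 to IDH2 FPKM was 3.78 and 4.42 in the A549 controls and 1.92 and 2.0002 after knockdown. It went from 7.83 and 7.77 to 2.53 and 2.34 in H2023, and from 7.41 and 5.96 to 4.90 and 4.21 in H460. In each line both knockdown libraries lay below both controls, and IDH1 stayed the more abundant of the pair. The log2 ratio changed by -1.06 in A549, -1.68 in H2023 and -0.55 in H460, and by -1.10 on average. The ratio was formed after the values of both genes were seen, so it is given as a description with no test.

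**Figure D3:**
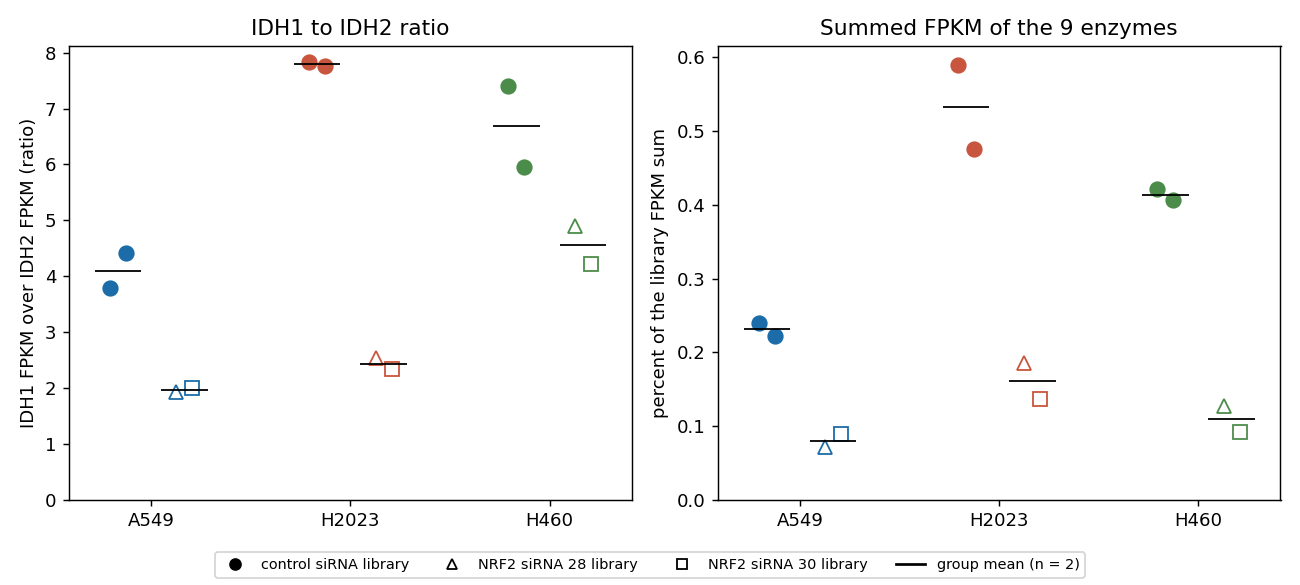
Ratio of IDH1 to IDH2 FPKM (left) and the summed FPKM of the 9 enzymes as a percentage of the library's FPKM sum (right), for every library by cell line, with a bar at each group mean of 2. The ratio was 1.92 to 4.90 with NRF2 siRNA, and the share was 0.0709% to 0.185% against 0.222% or more in the controls.

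Summed over the 9 members, FPKM went from 2391 and 2060 in the A549 controls to 822 and 818, from 3838 and 3145 to 1184 and 911 in H2023, and from 3136 and 2876 to 884 and 763 in H460. These sums are mostly PGD, TKT and TALDO1. As a share of the library they went from between 0.222% and 0.590% to between 0.0709% and 0.185%, and in each line both knockdown libraries lay below both controls. In H460 this went together with a rise of mitochondrially encoded transcripts from 8.56% and 13.1% of FPKM to 20.8% and 26.0%, and FPKM is relative to the whole library. Without the mitochondrial transcripts, the share of the 9 members in H460 was 0.461% and 0.468% in the controls and 0.161% and 0.124% after knockdown, and 4 members still fell in that line. Leaving those transcripts out moved the median of all genes in H460 from -0.01 to 0.12 in log2, so differences of that order there, such as that of IDH2, carry no direction. In H2023 the median moved from 0.02 to 0.10 and in A549 from 0.02 to -0.07. The H2023 values of PGLS (0.02) and RPE (0.06) are of that order and carry none either. The summed FPKM of 10 proliferation genes, among them MKI67 and TOP2A, was also lower in H460, at 441 to 445 after knockdown against 903 to 1058. In A549 this sum was 840 to 1025 against 1064 to 1165, and in H2023 471 to 919 against 759 to 905. Of the 10 genes marking leucocytes, endothelium and fibroblasts (no value was matched for PECAM1), 3 reached 1 FPKM in H460 (CD14, LUM and COL1A1), with a sum of 3.98 to 8.92 FPKM in the controls and 24.1 to 26.9 after knockdown. Most of that increase was CD14, from 1.77 and 5.49 to 17.6 and 19.4 FPKM. PTPRC, the common leucocyte marker, was at or below 0.0146 FPKM in H460 and at most 0.470 in any library, the highest being an H2023 knockdown library. The sum of that list was also higher after knockdown in A549 (4.14 to 6.14 against 2.16 to 3.05) and in H2023 (5.29 to 9.59 against 2.71 to 5.02). The part of either list in the results for these enzymes was not tested.

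Fitted over all 12 libraries with one spread, the average effect over the 3 lines was negative and past the threshold for 6 of the 9 members, against 14.5% of 11571 genes, and positive and past it for 0, against 15.2%. ME1 led at -2.47 ± 0.19 (limma adjusted p = 2.95e-05), followed by PGD at -1.98 ± 0.12 (adjusted p = 6.98e-06), TKT at -1.93 ± 0.17 (adjusted p = 6.43e-05) and TALDO1 at -1.55 ± 0.10 (adjusted p = 9.45e-06). IDH1 at -0.79 ± 0.10 (adjusted p = 0.000649) and RPIA at -0.49 ± 0.13 (adjusted p = 0.0166) passed here although neither passed in a single line. The RPIA call was lost without the first A549 control library (adjusted p = 0.0517) or the first H2023 control library (adjusted p = 0.0529). IDH2 averaged 0.28 ± 0.10 (adjusted p = 0.0605) and passed after rescaling by median ratio, without mitochondrial transcripts, with the replicate block (adjusted p = 0.0421) or without the first H2023 control library (adjusted p = 0.0415). PGLS averaged 0.23 ± 0.10 (adjusted p = 0.123), passing without the H460 siRNA 28 library (adjusted p = 0.0375), and RPE -0.08 ± 0.09 (adjusted p = 0.559). This fit uses the same libraries as the tests within lines and is not separate evidence, and its single spread is shared by lines that differ in library protocol.

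Whether the knockdown acted to a different degree in the 3 lines was tested as an interaction. For 0 of the 9 members did the effect differ between lines (limma F test, adjusted p from 0.297 for IDH1 to 0.971 for TALDO1; 0 members also at an unadjusted p under 0.05), against 2.51% of all genes tested, or 21.2% at the unadjusted p. In pairs of lines, 0 members passed between H2023 and A549, against 0.00864% of genes, between H460 and A549, against 3.13%, and between H460 and H2023, against 3.32%. At an unadjusted p under 0.05, ME1, PGD and RPIA had a more negative effect in H460 than in A549, by -1.05 ± 0.47, -0.71 ± 0.31 and -0.72 ± 0.31 in log2, and IDH1 a less negative one in H460 than in H2023, by 0.63 ± 0.26. At that level 22.5% of all genes passed in each of these pairs of lines, and the adjusted p of these 4 differences lay between 0.181 and 0.219. The 95% interval of the H460 minus A549 difference for ME1, -2.09 to -0.01, shows how wide a range of differences remained possible with 12 libraries. The difference for TALDO1 was -0.08 ± 0.25, with an interval of -0.64 to 0.48.

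The 2 siRNAs gave the same direction in each line for ME1, PGD, TKT, TALDO1, IDH1 and RPIA. Compared with each other in the 6 NRF2 siRNA libraries with the line as a covariate, 0 members passed in either direction, against 0.31% of 10981 genes lower and 0.938% higher with siRNA 28, while 2 members had an unadjusted p under 0.05, a share no larger than the 22.9% of all genes at that level. These were ME1, which was higher with siRNA 28 than with siRNA 30 by 0.75 ± 0.16 in log2 (limma adjusted p = 0.0765), and TKT, higher by 0.59 ± 0.15 (adjusted p = 0.0998). Both were lower with siRNA 30 in each of the 3 lines. Every siRNA 28 library is replicate 0 and every siRNA 30 library replicate 1, so the siRNA and the replicate number cannot be told apart. ME1 was also lower in replicate 1 of the control libraries of each line (33.15 and 30.14 FPKM in A549, 108.24 and 89.48 in H2023, 91.78 and 82.67 in H460). TKT was lower there in A549 (1117.56 and 797.37) and H460 (1310.95 and 1164.18) but not in H2023 (888.34 and 900.20). Control and knockdown libraries share the replicate number only. TALDO1 went the other way, by -0.28 ± 0.13 (adjusted p = 0.255), being lower with siRNA 28 in each line. The target NFE2L2 was itself at 5.31, 7.74 and 6.54 FPKM with siRNA 28 and 7.84, 6.80 and 12.19 with siRNA 30 in A549, H2023 and H460, so in A549 and H460 ME1 and TKT were lower with the siRNA that left more NFE2L2, whose own difference did not pass (-0.38, adjusted p = 0.351). With all 12 libraries in the fit, ME1 (adjusted p = 0.00746) and TKT (adjusted p = 0.0352) passed, as did 9.26% of 11571 genes in that direction and 6.27% in the other.

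**Figure D4:**
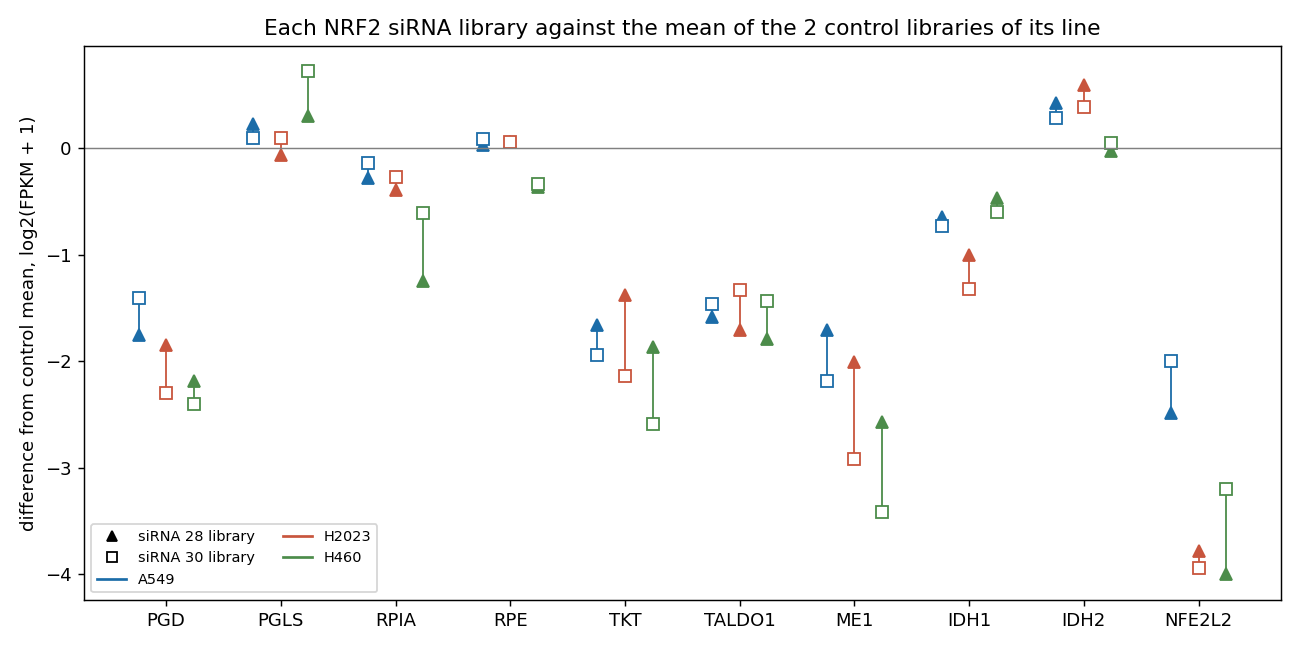
Difference of each NRF2 siRNA library from the mean of the 2 control libraries of its line, in log2(FPKM + 1), with filled triangles for siRNA 28, open squares for siRNA 30 and a line joining the pair. ME1 and TKT lie lower with siRNA 30 in all 3 lines and TALDO1 lies lower with siRNA 28 in all 3.

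Before knockdown the members were not at one level across lines. Between the control libraries of H460 and H2023, both from polyadenylated RNA, 2 members were lower in H460, against 24.2% of 14039 genes, and 1 was higher, against 24.6%, so the members were called no more often than all genes. PGD was lower in H460 by -0.91 ± 0.22 in log2 (limma adjusted p = 0.0182) and PGLS by -0.41 ± 0.13 (adjusted p = 0.0450). RPIA was higher in H460 by 0.75 ± 0.18 (adjusted p = 0.0157). Of these calls, 0 lower members remained without the first H2023 control library, 1 without the second or without the first H460 control library, and RPIA was not called without the second H2023 control library. TKT and TALDO1 stood higher in H460 by 0.47 ± 0.17 and 0.41 ± 0.14 without passing (adjusted p = 0.0660 and 0.0593). ME1, IDH1, IDH2 and RPE did not pass either, with 95% intervals of -0.54 to 0.20, -0.82 to 0.09, -0.59 to 0.32 and -0.27 to 0.61. The A549 control values of ME1, at 33.15 and 30.14 FPKM, and of PGD, at 622.88 and 655.63, lay below all control values of the other lines, from libraries of a different type. IDH2, at 34.39 and 29.72, lay above all of them.

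Across the 12 libraries, each centred on the mean of its line, the members that fell moved together. The Pearson correlation of log2(FPKM + 1) was 0.99 between TKT and ME1, 0.98 between PGD and ME1, 0.97 between PGD and TKT and 0.96 between PGD and TALDO1. IDH1 correlated at 0.92 with PGD, RPIA at 0.79, RPE at 0.39, IDH2 at -0.60 and PGLS at -0.67. These 12 points share the knockdown and the libraries, and the values only describe how closely the members kept step. The 5 genes whose centred profile was most like the mean of the members were AKR1B10, an aldo-keto reductase (r = 0.992), SRXN1, the sulfiredoxin (r = 0.990), GCLM, the modifier subunit of glutamate-cysteine ligase (r = 0.990), TRIM16L (r = 0.989) and TDP2, a DNA repair phosphodiesterase (r = 0.989). Their log2 fold changes in A549, H2023 and H460 were -3.59, -4.66 and -5.98 for AKR1B10, -2.52, -3.46 and -3.63 for SRXN1, and -2.73, -3.13 and -4.01 for GCLM. For TRIM16L they were -3.43, -3.46 and -4.44, and for TDP2 -1.08, -1.12 and -1.73. TDP2 did not pass in A549 or H2023 (limma adjusted p = 0.0918 and 0.114), nor AKR1B10 in H2023 (adjusted p = 0.0556). The other tests of these 5 genes passed. They were picked for following a profile that holds the knockdown, so their falls are no separate result.

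Few other genes of these pathways passed within a line. On the pentose and ribose side, 10 of 13 further genes could be tested in each line (RPEL1, TKTL1 and TKTL2 were too low), and 0 passed in A549 and H2023 and 1 fell in H460, where 6.86% of all genes did. At an unadjusted p under 0.05, in either direction, 4 passed in A549, 1 in H2023 and 4 in H460, beside 13.3%, 16.9% and 33.7% of all genes. Their median log2 fold change was 0.01, 0.14 and -0.30 in A549, H2023 and H460. On the list of NADPH and related dehydrogenases, which also holds the NAD-dependent IDH3A, IDH3B, IDH3G and ME2 and the NAD kinases, 15, 15 and 14 of 16 could be tested, 0 passed in A549 and H2023, and 2 fell in H460, against the same 6.86%. At an unadjusted p under 0.05, 1, 2 and 5 of them passed, all lower, beside the same shares of all genes, with medians of -0.06, -0.08 and -0.31. On the average over the 3 lines, of the 24 genes of both lists that were tested, 7 were past the threshold below 0, against 14.5% of all genes (MTHFD2, PRPS2, ME2, IDH3A, MTHFD1L, PGM2 and DERA, from -0.45 to -1.32 in log2) and 2 above it, against 15.2% (H6PD at 0.60 and PGM1 at 0.46). Within lines, no gene of either list rose past the threshold in any line, and none passed in more than 1 line.

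The 3 that fell in H460 were PRPS2, a ribose-phosphate pyrophosphokinase, MTHFD2, the mitochondrial methylenetetrahydrofolate dehydrogenase, and ME2, the mitochondrial NAD-dependent malic enzyme. MTHFD2 went from 253.90 and 131.96 FPKM to 36.65 and 30.64 (log2 fold change -2.42 ± 0.34, limma adjusted p = 0.0178). It had the smallest p of its list in the other lines too, at -0.72 ± 0.15 in A549 and -0.83 ± 0.18 in H2023, without passing (adjusted p = 0.159 and 0.127). PRPS2 went from 31.11 and 34.55 FPKM to 12.08 and 6.82 in H460 (-1.74 ± 0.31, adjusted p = 0.0240), while A549 gave -0.38 and H2023 0.28. ME2 went from 105.56 and 88.68 FPKM to 43.35 and 35.53 in H460 (-1.28 ± 0.23, adjusted p = 0.0243), against -0.13 in A549 and -0.08 in H2023. The effect on ME2 and PRPS2 differed between the 3 lines (limma F test, adjusted p = 0.0423 and 0.0337), by -1.15 ± 0.24 for ME2 and -1.36 ± 0.34 for PRPS2 in H460 relative to A549. For MTHFD2 this test gave an adjusted p of 0.0556. Over all genes the F test called 290, and 76 with the replicate block. Whether ME2 and PRPS2 were among those 76 was not looked at.

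H6PD, the hexose dehydrogenase of the endoplasmic reticulum, had the smallest p of the pentose side in A549, at 0.46 ± 0.15 in log2 (limma adjusted p = 0.291), and was at 1.12 ± 0.30 in H460 (adjusted p = 0.0565). Its FPKM was above both controls with both siRNAs in each line, from 5.22 and 5.10 to 9.79 and 15.73 in H460. PGM1, a phosphoglucomutase, was at 0.47, 0.19 and 0.73 in A549, H2023 and H460 (adjusted p = 0.297, 0.565 and 0.0959). RBKS, the ribokinase, was at 0.63 in H2023 (adjusted p = 0.239) and PGM2 at -1.14 in H460 (adjusted p = 0.0603). Among the dehydrogenases, the remaining smallest p in A549 belonged to ALDH1L2 (-0.33) and IDH3G (0.23), in H2023 to IDH3A (-0.57) and ME3 (0.63), and in H460 to MTHFD1 (-0.85, adjusted p = 0.0516), and none of these passed.

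**Figure D5:**
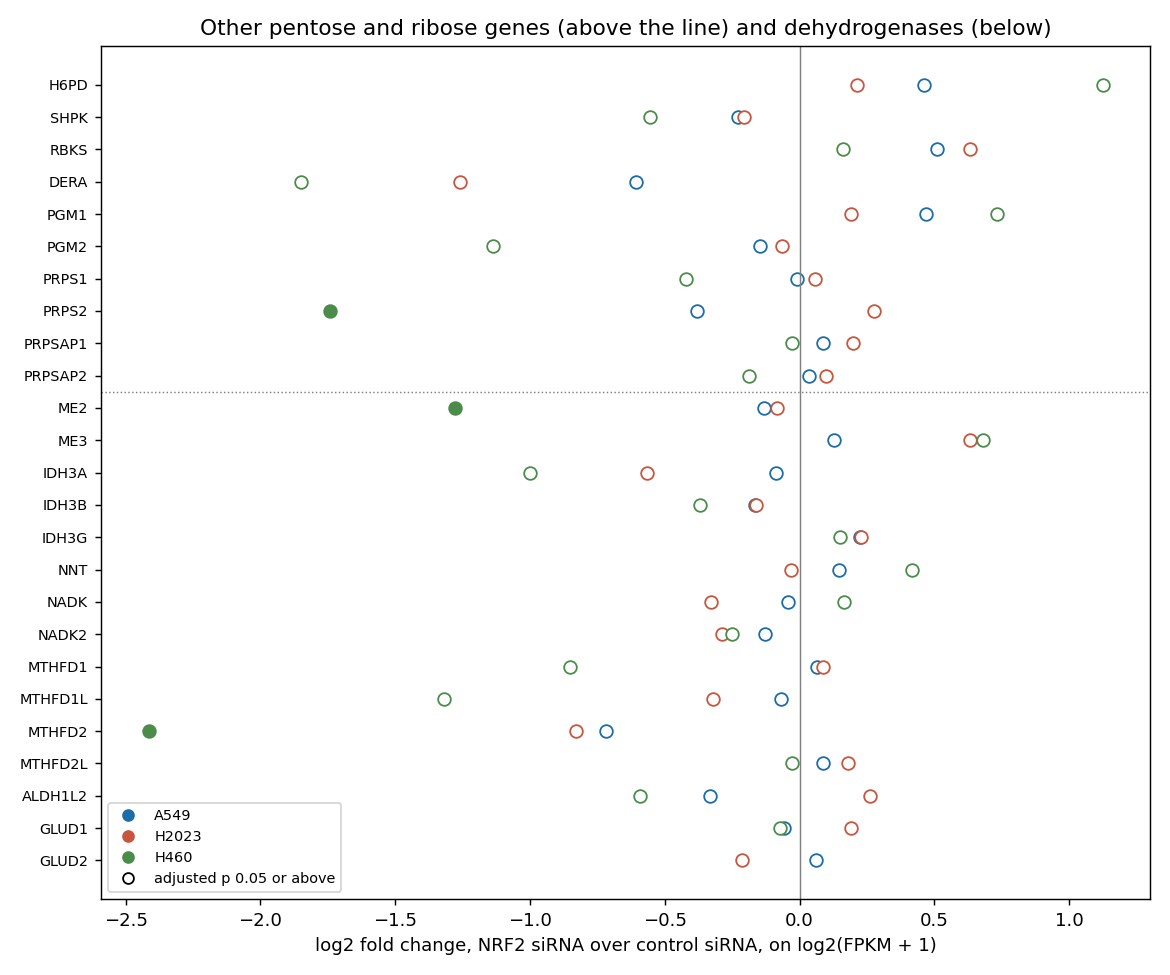
log2 fold change with NRF2 siRNA over control siRNA (log2 of FPKM + 1) of the further pentose and ribose genes, above the dotted line, and of the further dehydrogenases and NADPH genes, below it, coloured by cell line and filled where the adjusted p was under 0.05. PRPS2, ME2 and MTHFD2 in H460 are the filled points, and most others lie within 1 of 0.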

How the data were processed

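RNA of A549, H2023 and H460 cells taken 48 h after transfection was sequenced, strand-specific and paired-end, in 12 libraries. The deposited FPKM values were computed by the authors per gene. Their methods name TopHat and Cufflinks on hg19, while the submitters' processing notes list STAR 2.5.3a, Cuffnorm, HTSeq and DESeq2 with no role, so the tool behind a value is uncertain. FPKM scales each library to its total, so a rise of abundant transcripts lowers all others. 3 further tables hold the authors' own DESeq2 comparisons (mean normalised counts, fold changes, errors, test statistics and p-values) and were not used.

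The 12710 values below 1e-06 were set to 0, and 96.1% of gene identifiers matched a symbol. No pair of libraries was identical. log2(FPKM + 1) was fitted with limma 3.58.1 in R 4.3.3, with a trend of the prior variance, over genes at 1 FPKM or more in 2 of the 4 libraries of a line, and p-values were adjusted by Benjamini and Hochberg over all genes tested, with a two-sided threshold of 0.05. Lines were fitted alone. The average and the interaction came from 1 fit of 12 libraries over genes that met the filter in every line, siRNA 28 was compared with 30 in 6 libraries, and H460 with H2023 in 4. The fits were tested on simulated data. Control duplicates are labelled biological, and with 2 libraries per group every error is imprecise. Gene positions are from GENCODE on GRCh37 and promoters from RefSeq on GRCh38.p14. Figures were drawn with matplotlib 3.10.9.

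The members and lists were chosen with earlier results of these data known. The text names all 9 members, NFE2L2, other pathway genes past the threshold in 2 or more lines or among the 3 smallest p of their list in a line, the 5 genes most alike and, chosen after their values were seen, every other pathway gene that passed in a line or on average. The alternatives were the pseudocount, the filter, the scaling, the prior, 1 fit of all libraries, a replicate block, a weight per line and leaving out each library. Rescaling over the 4 control libraries of H460 and H2023 and the IDH1 to IDH2 ratio were added after seeing the data.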

Additional observations from a re-analysis of the deposited data

Results flagged for a closer look

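RPE lay on opposite sides of its controls in 2 lines, with both NRF2 siRNA libraries below both controls in H460 (36.20 and 37.11 against 54.36 and 40.77 FPKM) and above both in A549 (43.80 and 45.65 against 42.87 and 42.98 FPKM). The log2 difference in effect, H460 minus A549, was -0.41 ± 0.23, and in the limma fit of all 12 libraries it did not pass (unadjusted p = 0.103, adjusted p = 0.326). The A549 value of 0.06 turned to -0.05 when mitochondrial transcripts were left out.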

How the results depend on the processing

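The 4 members that fell most kept their direction in each line under every alternative run, and ME1, PGD, TKT, TALDO1 and IDH1 kept a negative average past the threshold in all 21 alternatives of that fit. The count of members called within a line was less stable. Without a filter on low values it was 0 in A549, H2023 and H460. In H460, where 4 fell, it was 6 in the 12-library fit, adding IDH1 and RPIA, and 5 with the replicate block, adding RPIA. In A549 it was 3 without mitochondrial transcripts, with PGD lost. In H2023, where 3 fell, the count was 1 with a pseudocount of 0.1 (PGD), 0 with no trend of the prior variance, and 5 both with 1 fit of all 12 libraries and with the replicate block, adding IDH1 and TKT. With a single library left out, the members that fell numbered 0 to 4 in A549, 0 to 5 in H2023 and 0 to 5 in H460. The lone sample is then assumed to vary like the other group. PGLS was called higher in H460 in the 12-library fit, giving 1 member against 0. For the average, 1 member rose instead of 0 after rescaling by median ratio, after leaving out mitochondrial transcripts and with the replicate block (IDH2 each time), and 0 to 1 with a library left out. The IDH1 to IDH2 log2 ratio, -1.10 on average, lay between -1.15 and -1.04 with a library left out, and scaling does not touch it. No member differed between lines under any setting. In the 12-library fit ME1 and TKT were called higher with siRNA 28, with the error taken from the control duplicates alone.

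In H460 against H2023 with control siRNA, 2 members were lower, which became 1 without a filter, 1 with 1 FPKM required in every library, 1 with no trend and 4 without mitochondrial transcripts, and 0 to 2 with a library left out. The 1 higher became 0 without a filter and 0 to 1 with a library left out. Values near 0 changed sign. These were RPE in A549 (-0.0473 without mitochondrial transcripts) and PGLS in H2023 (-0.0059 by median ratio). With a library left out, PGLS in H2023 lay between -0.0629 and 0.0944, RPE in H2023 between -0.0276 and 0.148, IDH2 in H460 between -0.0387 and 0.0617, and PGD between siRNAs between -0.0636 and 0.330. Of the differences between H460 and H2023, RPE was -0.0400 without mitochondrial transcripts and between -0.0319 and 0.375 with a library left out, and IDH2 between -0.333 and 0.0699. Why these values moved was not tested.

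The replicate numbers pair control and knockdown libraries by number only. Deviations of same-numbered libraries correlated at 0.06, 0.29 and 0.14 in the 3 lines, A549 first and H460 last. Over all genes, the replicate block moved the calls from 82 lower and 46 higher to 298 and 413 in H2023, and from 922 and 957 to 1530 and 1647 in H460. The genes whose effect differed between lines went the other way with the block, from 290 to 76. Over all alternatives, all genes called lower ranged from 0 to 193 in A549, 0 to 801 in H2023 and 0 to 2256 in H460, and those whose effect differed between lines from 3 to 843, against 290. Read counts were not used here, so no interval rests on depth.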

Other observations

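DERA, the deoxyribose-phosphate aldolase on the pentose and ribose list, lay below both controls with both siRNAs in every line, and lower with siRNA 30. With siRNA 30 it was at 20.14 FPKM in A549, 8.77 in H2023 and 2.47 in H460. The siRNA 28 libraries held 44.10, 28.34 and 20.61 in that order, where the controls lay at 47.28 and 44.74, 40.12 and 38.93, and 29.29 and 31.08 FPKM. The difference between siRNAs was 1.77 ± 0.29 in log2 (limma adjusted p = 0.0485, higher with siRNA 28 in 3 of 3 lines). Counting both siRNAs as duplicates, its log2 fold change was -0.61, -1.26 and -1.85 in these lines with SEs of 0.35, 0.51 and 0.77, and it passed in none (adjusted p = 0.529, 0.299 and 0.151), although the average over lines did (-1.24 ± 0.42, adjusted p = 0.0495). DERA is described over all lines after its values were seen.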
